A study of Mus musculus with 6 samples.

Results

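The matrix metalloproteinases (MMPs), the ADAM and ADAMTS proteases and the tissue inhibitors of metalloproteinases (TIMPs) were followed in the RNA of 6 mouse livers, as the 57 rows, of 15454 in the deposited count table, whose gene name is Mmp, Timp, Adam, Adamts or Adamtsl followed by a number. They comprised 17 Mmp, 4 Timp, 16 Adam, 15 Adamts and 5 Adamtsl genes. All the mice were male C57BL/6 animals aged 8 to 10 weeks, housed free of specific pathogens, and in all of them the blood supply to 75% of the liver had been clamped and then released, which is warm hepatic ischemia and reperfusion. The 3 I/R mice had been given vehicle, and the 3 I/R+Rk2 mice had been given ginsenoside Rk2, a saponin of ginseng, 2 days before surgery and again as reperfusion began. No sham-operated liver was analysed here, so no level before injury is available, and nothing in the samples separates the cell types of the whole liver.

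MMPs are zinc proteases that are made as inactive precursors and that cleave collagens, elastin, laminins and many cell surface proteins, while TIMPs block their active site. ADAMs are membrane proteases that release the outer part of cytokines, growth factors, receptors and adhesion molecules, a step called shedding, and ADAMTS proteases are secreted and cut proteoglycans such as versican and the ends of procollagen. The ADAMTS-like proteins have no protease domain and bind the matrix. In the injured liver, leukocytes that leave the vessels carry several of these enzymes, and resident macrophages, endothelium and stellate cells make others.

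Total counts ran from 16809613 to 35618074 per liver, and levels are given below as counts per 1000000 of the library size scaled by TMM (trimmed mean of M values), written CPM, within a gene, and as FPKM (fragments per kilobase of transcript and per 1000000 fragments mapped) wherever genes are compared with one another. The hepatocyte marker albumin (Alb) was at 49227 ± 4366 CPM (SD, n = 3) in I/R and 80119 ± 10007 CPM (SD, n = 3) in I/R+Rk2 and was the most abundant of the 12 hepatocyte markers in each group. Nothing in the labels says more about the replicates than their number, so the p-values measure the spread between these livers.

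Most of the members that could be tested were lower after Rk2. Of the 57 genes, 38 had enough counts to be tested for I/R+Rk2 against I/R, with edgeR's quasi-likelihood test and p-values adjusted over 12411 genes. At an adjusted p below 0.05, 26 of the 38 changed, where 43.9% of all genes tested did. Of these, 22 fell (57.9% of the members tested, against 23.7% of all genes tested) and 4 rose (against 20.3%), and 17 fell by more than 2-fold (44.7%, against 11.4%) while 2 rose by more than 2-fold (against 3.17%). The 3 I/R+Rk2 livers did not overlap the 3 I/R livers for 27 of the 38, which was so for 57.4% of all genes tested. The median log2 fold change of the members was -0.90, and that of all genes tested was -0.0076. Fewer cells of a type and less RNA per cell cannot be told apart in whole-liver RNA, here or for any gene that follows. With libraries scaled by size alone, the median of all genes tested moved to -0.17 and 72.5% of all calls were decreases, against 53.9% under TMM, and 22 members fell and 2 rose.

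The subfamilies were described by the same counts, and no test between them was made. Among the Mmp genes, 9 of 14 tested fell and 2 rose, with a median log2 fold change of -1.64. Among the Adam genes, 6 of 8 fell and none of the 8 rose (median -1.38), and among the Timp genes 2 of 3 fell (median -0.67). The Adamts genes divided more evenly, with 4 of 10 lower and 1 higher (median -0.51). Of the 3 tested Adamtsl genes 1 fell and 1 rose (median 0.13). Decreases made up 64.3% of the Mmp, 75% of the Adam and 66.7% of the Timp genes tested. They made up 40% of the Adamts and 33.3% of the Adamtsl genes, against 23.7% of all genes tested. In either direction 50% of the Adamts genes changed, near the 43.9% of all genes tested. Their groups did not overlap for 50%, against 57.4%. A gene enters the test through either group, and 5 of the tested members averaged under 10 counts in I/R+Rk2, against 2 in I/R. Low members could thus enter through the group in which they were high. The 5 were Mmp7, Mmp12, Mmp13, Mmp24 and Mmp25, all counted above among the 9 Mmp decreases. The Mmp share of decreases therefore rests in part on genes that could be called as decreases only. With at least 10 counts required in every liver, 16 of the 26 members tested fell and 3 rose. Of all 11250 genes tested under that filter, 5102 changed, and 53.1% of those changes were decreases. The medians moved with the genes and livers used. That of the Mmp genes was -0.56 with at least 10 counts in every liver, -0.99 when I/R+Rk2 replicate 2 was left out and -0.91 when replicate 3 of that group was. On FPKM it was -0.94 with a pseudocount of 1 and -0.42 with no filter. The Adam median was -0.11 on FPKM with no filter. The Adamts median was -0.038 there, -0.87 on FPKM with a pseudocount of 1 and -1.18 with a pseudocount of 0.1. The Timp median was -0.40 on FPKM with no filter, -0.44 with the length trend removed and -0.30 for counts with no filter.

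**Figure D1:**
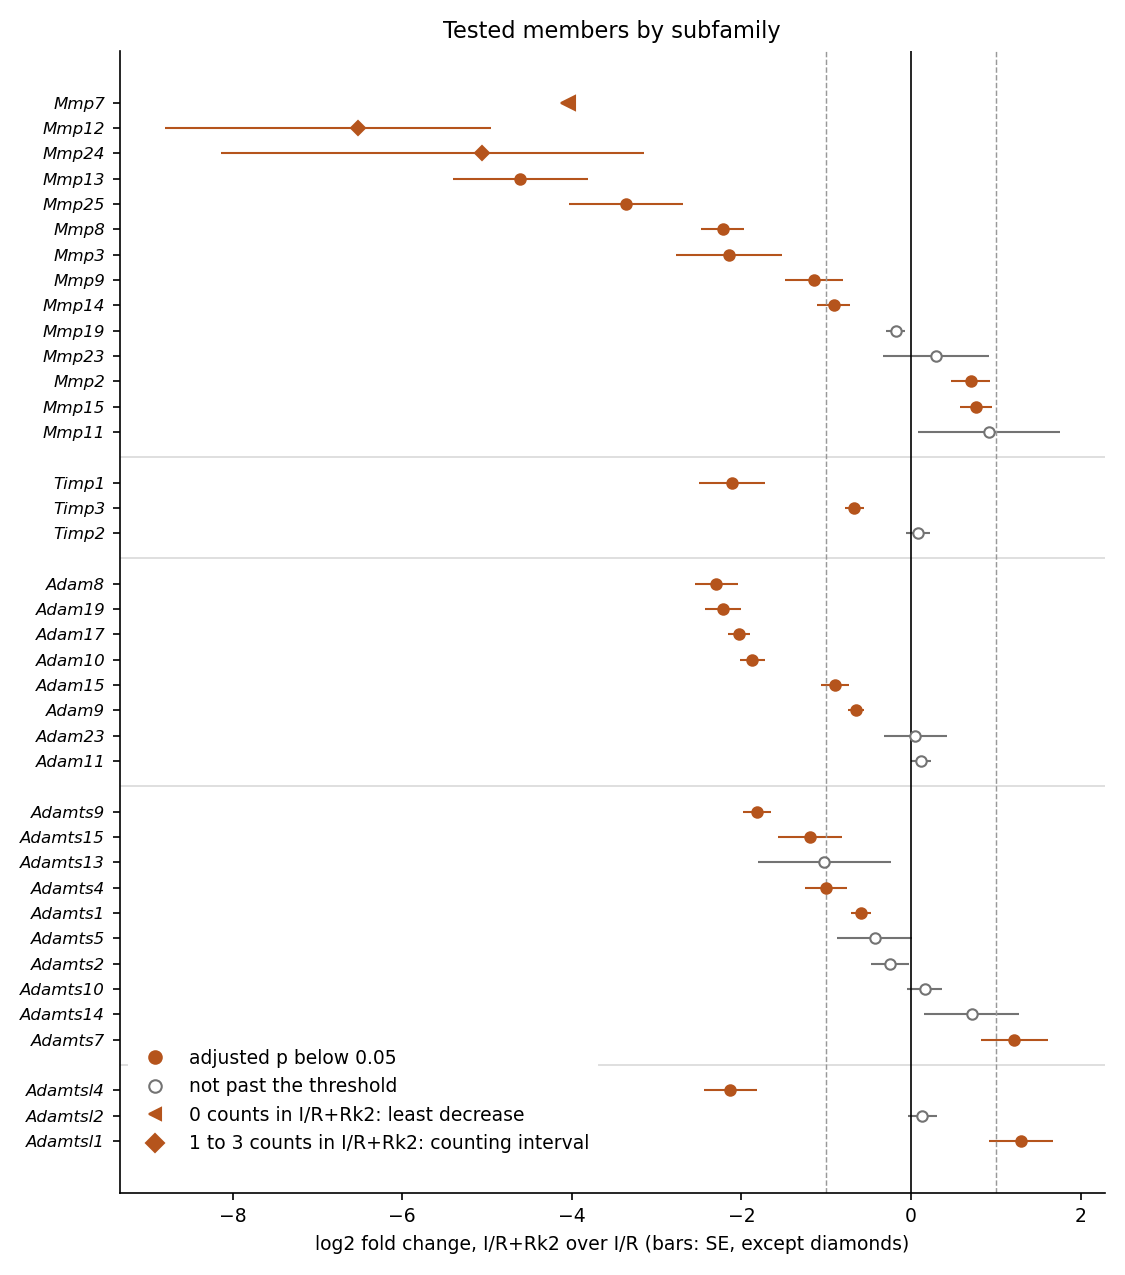
Log2 fold change of I/R+Rk2 over I/R (horizontal axis) for the 38 tested members, one row each, grouped as Mmp, Timp, Adam, Adamts and Adamtsl from top to bottom. Circles carry the standard error (SE), filled circles have an adjusted p below 0.05, the triangle is the smallest decrease that the counts of Mmp7 allow, diamonds carry a counting interval, and dashed lines mark a 2-fold change; filled symbols lie to the left of zero for 22 genes and to the right for 4.

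Several decreases belonged to a run of neighboring Mmp genes on chromosome 9. In the mouse genome build GRCm38, Mmp13, Mmp12, Mmp3, Mmp10, Mmp8 and Mmp7 lie in this order on the plus strand within 427072 bases (chr9:7272514-7699585, by the GENCODE M21 annotation used for all coordinates below). These 6 are the Mmp genes of this stretch that have deposited counts, and they are called the cluster below. Mmp1b, annotated on the opposite strand over exonic bases of Mmp12, has no deposited counts. The 6 include interstitial collagenases (Mmp13 and the neutrophil collagenase Mmp8), the macrophage elastase Mmp12, the stromelysins Mmp3 and Mmp10, and matrilysin, Mmp7. The 5 that could be tested all fell by more than 2-fold, and Mmp10 had counts in the I/R livers alone. Mmp7, Mmp12 and Mmp13 had at most 6 counts in any I/R+Rk2 liver, so they entered the test through their I/R counts and could be called as decreases only. With at least 10 counts required in every liver, Mmp8 was the only gene of the cluster tested. Of the Mmp genes elsewhere in the genome, 4 of 9 tested fell and 2 rose, which was not compared with the cluster. The DNA just upstream of the start sites is shown for 5 of the 6 genes, because an AP-1 site lies there, the binding site of FOS and JUN proteins that is known from MMP promoters. AP-1 sites (TGACTCA or TGAGTCA, which are each other's reverse complement) and the TATA box (TATAAA, searched on the gene's strand) are in capitals and share no base. The 80 bases before each RefSeq start site (GRCm38.p6, chromosome 9, plus strand, 5′ to 3′) are given.

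Mmp13: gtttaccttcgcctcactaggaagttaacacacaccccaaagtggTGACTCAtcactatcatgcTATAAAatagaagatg
Mmp12: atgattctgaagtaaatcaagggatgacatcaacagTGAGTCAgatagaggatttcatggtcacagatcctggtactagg
Mmp3: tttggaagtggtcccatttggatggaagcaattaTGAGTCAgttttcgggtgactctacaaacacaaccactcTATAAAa
Mmp10: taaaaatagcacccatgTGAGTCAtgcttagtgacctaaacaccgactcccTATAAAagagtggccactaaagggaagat
Mmp7: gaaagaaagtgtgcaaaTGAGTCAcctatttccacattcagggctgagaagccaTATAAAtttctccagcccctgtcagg

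These windows run from 7272434 to 7272513 (Mmp13), 7347294 to 7347373 (Mmp12), 7445742 to 7445821 (Mmp3), 7502262 to 7502341 (Mmp10) and 7692010 to 7692089 (Mmp7). None holds an annotated exonic base. The window of Mmp12 belongs to the second of its RefSeq start sites, which lies inside the gene, and its TATAAA begins after that start site. In the 300 bases that RefSeq promoters cover here (250 before and 50 after the start), an AP-1 site was found in 5 of these 6 genes, in 7 of the 37 members that have such a promoter (18.9%), and in 5.20% of all 32851 promoters. The TATA box was found in 7 of the 37 members (18.9%, against 8.32% of all promoters), 5 of them in this cluster. The ETS core (AGGAAG, both strands) was found in 16 of the 37 (43.2%, against 35.4%) and the NF-kB motif (both strands) in 7 (18.9%, against 8.46%), among which 1 is in the cluster, Mmp12. A member was counted if any of its promoters held the motif, and the 37 members have 42 promoters. The shares of all promoters are per promoter, so the units differ. These are matches of letters in a fixed window, and binding of a factor was not measured.

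Mmp8 was the most abundant gene of the cluster, at 23.3, 22.5 and 19.9 FPKM in I/R and 6.27, 3.46 and 2.89 FPKM in I/R+Rk2. In CPM it stood at 52.8, 56.9 and 50.8 CPM in I/R and 16.6, 9.47 and 8.17 CPM in I/R+Rk2. All I/R+Rk2 livers lay well below all I/R livers, and Mmp8 fell with a log2 fold change of -2.22 ± 0.25 (SE, adjusted p = 0.000988). Of 13 tested neutrophil markers, 11 fell and none rose, and the summed CPM of the 15 markers in the table ran from 546 to 681 in I/R and from 101 to 233 in I/R+Rk2. Their part in the fall of Mmp8 was not tested.

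Mmp7 had 57, 57 and 35 counts in I/R (2.97, 2.22 and 1.40 CPM) and 0 in every I/R+Rk2 liver. With 3 counts per library taken as the smallest level that could be seen, it was at least 16.5-fold lower (adjusted p = 0.00161). Mmp12 had 129, 43 and 88 counts in I/R and 0, 0 and 3 in I/R+Rk2, so its level was 91.6 times as high in I/R, with a 95% counting interval of 31.0 to 447 (exact conditional binomial, counting error only; adjusted p = 0.00295). Neither gene overlapped between the groups, and within I/R the level of Mmp12 varied from 1.68 CPM in replicate 2 to 6.73 CPM in replicate 1.

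Mmp13 had a similar spread in the I/R livers, at 8.29, 1.25 and 3.91 CPM in I/R and 0.126, 0.178 and 0.246 CPM in I/R+Rk2. Replicate 1 of I/R held the highest level and replicate 2 the lowest, and each still lay above every I/R+Rk2 liver. It fell with a log2 fold change of -4.61 ± 0.80 (SE, adjusted p = 0.00417), and the call held without any single liver (adjusted p from 0.00211 to 0.0220), though it was lost on FPKM with no filter (log2 fold change -1.23 by limma, adjusted p = 0.0523). Mmp3 stood at 3.39, 3.20 and 2.03 CPM in I/R and 0.672, 0.148 and 1.29 CPM in I/R+Rk2. The groups did not overlap, though the I/R+Rk2 livers ranged widely around their mean of 0.703 ± 0.571 CPM (SD, n = 3), and Mmp3 fell with a log2 fold change of -2.15 ± 0.62 (SE, adjusted p = 0.0283). That call was lost without I/R replicate 1, I/R replicate 2 or I/R+Rk2 replicate 1 (adjusted p of 0.0885, 0.0722 and 0.0608). Mmp10, which had too few counts to be tested, had 40, 6 and 4 counts in I/R and 0 in all 3 I/R+Rk2 livers, so 1 I/R liver held most of its reads. Mmp3 and Mmp10 resemble each other in sequence, and how reads that fit both were counted was not stated.

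Summed over the cluster, the level was 34.7, 27.2 and 24.6 FPKM in I/R and 6.65, 3.58 and 3.58 FPKM in I/R+Rk2. The cluster made up 35.3% ± 1.2 (SD, n = 3) of the summed FPKM of all Mmp genes in I/R and 10.1% ± 2.0 (SD, n = 3) in I/R+Rk2, and the livers of the groups did not overlap in either measure. Most of this share was that of Mmp8 alone, at 27.2% ± 2.6 in I/R and 9.24% ± 2.34 in I/R+Rk2 (SD, n = 3 each).

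**Figure D2:**
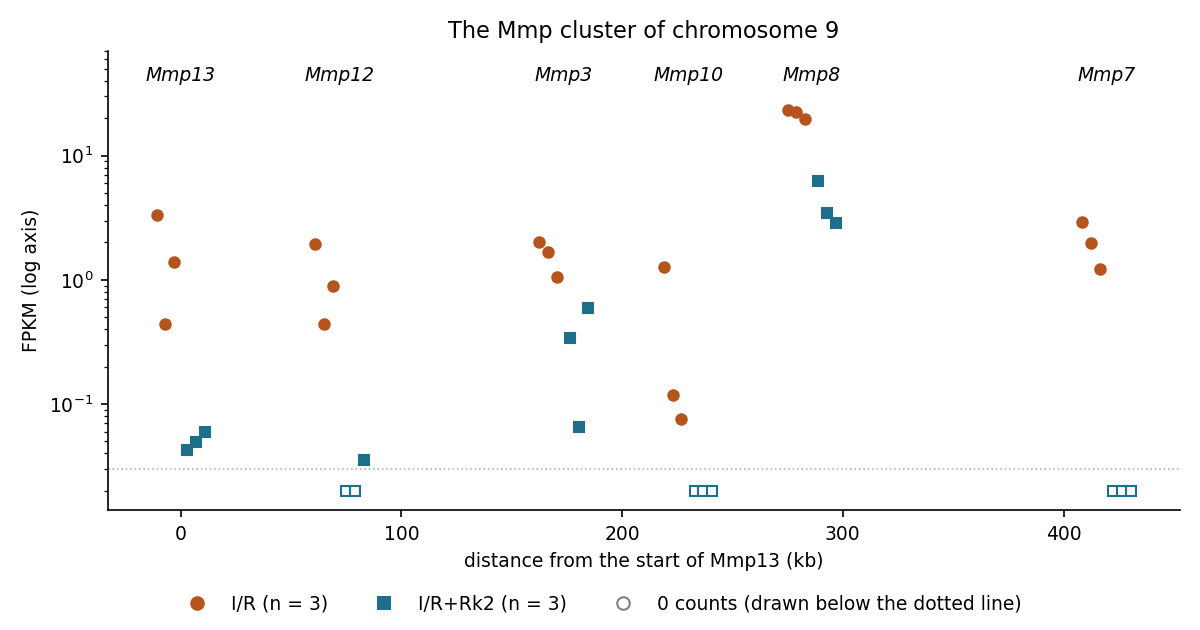
FPKM on a log axis (vertical) of the 6 Mmp genes of the chromosome 9 cluster that have deposited counts. They are placed by the distance of each gene's start from that of Mmp13 in kilobases (horizontal). Each circle is 1 I/R liver and each square 1 I/R+Rk2 liver, moved sideways so that they can be told apart, and open symbols are livers with 0 counts; every square of a gene lies below every circle of that gene.

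The gelatinases, which degrade denatured collagen and basement membrane, moved in opposite directions. Mmp9, the gelatinase of neutrophils and macrophages (chr2:164940780-164955850), stood at 15.3, 10.3 and 15.9 CPM in I/R and 9.75, 5.03 and 3.93 CPM in I/R+Rk2. The highest I/R+Rk2 liver, replicate 1, came close to the lowest I/R liver, replicate 2, without overlap. Mmp9 fell with a log2 fold change of -1.14 ± 0.34 (SE, adjusted p = 0.0310), and the call was lost without I/R replicate 1 or 3 or I/R+Rk2 replicate 2 or 3 (adjusted p of 0.0895, 0.0929, 0.103 and 0.0744). Relative to Mmp8, the level of Mmp9 was 0.226 ± 0.067 (ratio of FPKM, SD, n = 3) in I/R and 0.507 ± 0.055 (SD, n = 3) in I/R+Rk2, with no overlap between the livers. Mmp2, the gelatinase of mesenchymal cells (chr8:92827291-92853420), was scarce, at 1.46, 1.60 and 1.24 CPM in I/R and 2.35, 2.04 and 2.64 CPM in I/R+Rk2. Every I/R+Rk2 liver was above every I/R liver, and Mmp2 rose with a log2 fold change of 0.70 ± 0.23 (SE, adjusted p = 0.0414). That rise was lost when any 1 of the 6 livers was left out (adjusted p from 0.0629 to 0.132) and kept its call in 4 of 16 other analyses.

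The membrane-type MMPs are anchored in the cell surface. Mmp14 (chr14:54431612-54445364), which activates the precursor of the Mmp2 enzyme together with TIMP2, was among the 3 most abundant Mmp genes at 20.1, 12.9 and 13.1 FPKM in I/R and 9.16, 7.40 and 5.71 FPKM in I/R+Rk2. Its CPM values were 47.7, 34.0 and 34.4 CPM in I/R and 24.8, 20.9 and 15.8 CPM in I/R+Rk2. The groups did not overlap and Mmp14 fell with a log2 fold change of -0.91 ± 0.20 (SE, adjusted p = 0.00974). Mmp15 (chr8:95352268-95375080), a related membrane-type enzyme, moved the other way, at 22.7, 34.6 and 24.7 CPM in I/R and 55.7, 41.2 and 42.4 CPM in I/R+Rk2. Here each I/R+Rk2 liver lay above each I/R liver, and Mmp15 rose with a log2 fold change of 0.76 ± 0.19 (SE, adjusted p = 0.0162), a call that was lost without I/R replicate 1 or 3 (adjusted p of 0.0536 and 0.0642). As a share of the summed Mmp FPKM, Mmp15 went from 6.81% ± 1.51 (SD, n = 3) in I/R to 18.3% ± 0.6 (SD, n = 3) in I/R+Rk2.

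Mmp25 and Mmp24 were the scarce members of this class. Mmp25, the membrane-type MMP of neutrophils, had 25, 27 and 18 counts in I/R and 5, 2 and 0 in I/R+Rk2, and fell with a log2 fold change of -3.36 ± 0.67 (SE, adjusted p = 0.00715). Mmp24, best known from neurons, had 14, 28 and 21 counts in I/R and 0, 0 and 2 in I/R+Rk2, a ratio of 33.3 with a 95% counting interval of 8.84 to 281 (counting error only; adjusted p = 0.00431). Neither gene overlapped between the groups. With at most 5 counts in any I/R+Rk2 liver, both entered the test through their I/R counts and could be called as decreases only. With at least 10 counts required in every liver, neither was tested. An exon of another gene, BC029722, lies on the opposite strand over 13.6% of the exonic bases of Mmp24, and whether counting used the strand was not stated. Mmp17 had 3 to 10 counts in every liver and was not tested.

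Mmp19, a secreted MMP, held the highest FPKM of the subfamily in I/R+Rk2 and was level with Mmp8 in I/R, at 27.3, 21.4 and 20.5 FPKM in I/R and 19.2, 15.0 and 16.6 FPKM in I/R+Rk2. Its CPM values were 78.3, 69.4 and 65.8 CPM in I/R and 69.4, 56.2 and 62.6 CPM in I/R+Rk2, which overlapped, and the log2 fold change of -0.18 ± 0.11 (SE, adjusted p = 0.220) did not pass the threshold. On FPKM the groups did not overlap, and limma gave a log2 fold change of -0.44 (adjusted p = 0.0496) with a pseudocount of 0.1 and -0.42 (adjusted p = 0.0480) with a pseudocount of 1, both past the threshold. Its share of the summed Mmp FPKM was 28.4% ± 0.3 (SD, n = 3) in I/R and 38.4% ± 2.3 (SD, n = 3) in I/R+Rk2, without overlap between the livers, while that of Mmp8 was 27.2% ± 2.6 and 9.24% ± 2.34 (SD, n = 3 each). Over all Mmp genes the summed level was 95.5, 76.1 and 72.2 FPKM in I/R and 53.5, 38.9 and 40.8 FPKM in I/R+Rk2. Exons of Tmem198b and Gm47093 on the opposite strand cover up to 22.3% of the exonic bases of Mmp19.

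Mmp11, the stromelysin of stromal cells, had 0, 59 and 60 counts in I/R and 75, 82 and 59 in I/R+Rk2, and its log2 fold change of 0.92 ± 0.83 (SE, adjusted p = 0.400) did not pass the threshold. The 0 stands in the same I/R library, replicate 1, that held the most counts of Mmp10, Mmp12 and Mmp13. Mmp23, a membrane-spanning MMP, had 2, 17 and 14 counts in I/R and 11, 13 and 15 in I/R+Rk2, with a log2 fold change of 0.30 ± 0.63 (SE, adjusted p = 0.723), and its groups overlapped. Mmp28 had 5 to 17 counts per liver and was not tested.

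**Figure D3:**
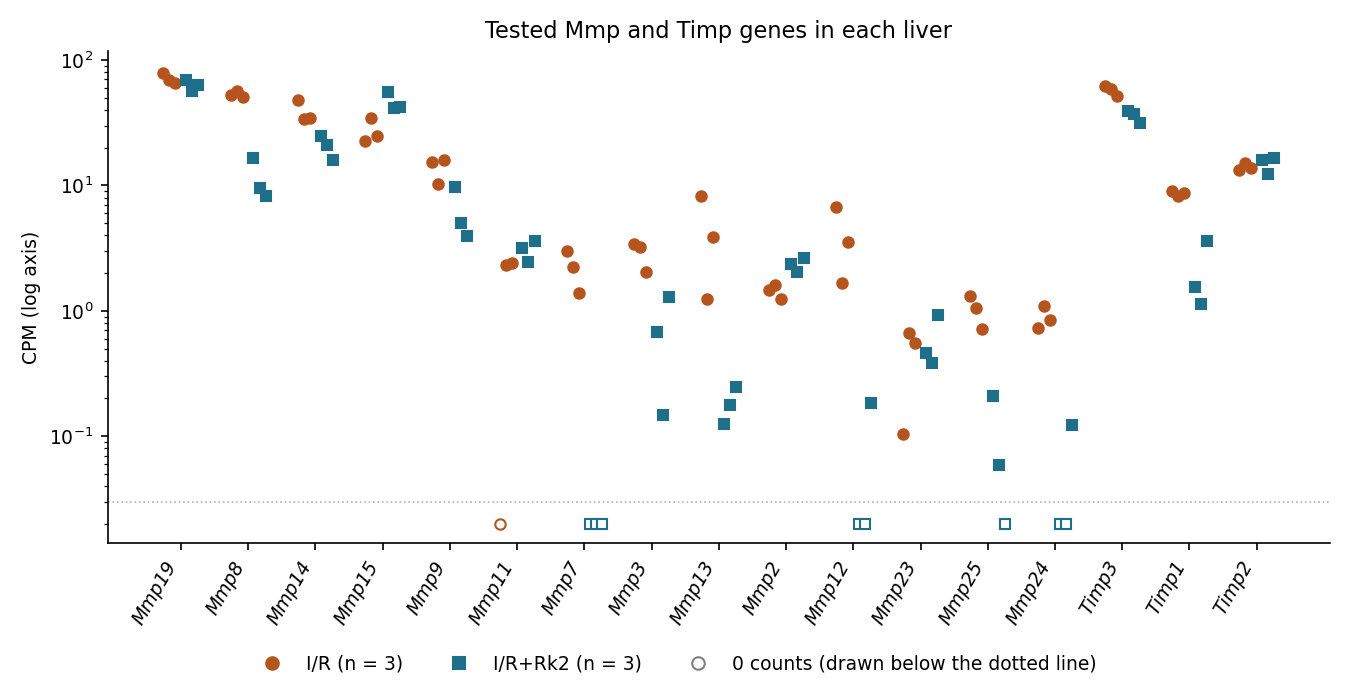
CPM on a log axis (vertical) of the 14 tested Mmp and 3 tested Timp genes (horizontal, each subfamily by falling mean FPKM) in each of the 3 I/R livers (circles) and 3 I/R+Rk2 livers (squares); open symbols are livers with 0 counts. The symbols are separated for all but Mmp19, Mmp23 and Timp2, and heights are to be compared within a gene only.

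Of the inhibitors, Timp1 changed most. Timp1 (chrX:20870166-20874735), the inducible TIMP and an inhibitor of most secreted MMPs, stood at 9.07, 8.27 and 8.73 CPM in I/R and 1.56, 1.13 and 3.62 CPM in I/R+Rk2. All I/R livers lay close together and above the highest I/R+Rk2 liver, replicate 3, which stood apart from the rest of its group. Timp1 fell with a log2 fold change of -2.11 ± 0.39 (SE, adjusted p = 0.00530), and the call held without any single liver (adjusted p from 0.00150 to 0.0232). Timp3 (chr10:86300372-86349506), which binds to the matrix and also inhibits ADAM17, was the most abundant TIMP at 14.1, 12.2 and 10.5 FPKM in I/R and 8.31, 7.38 and 6.05 FPKM in I/R+Rk2. In CPM it stood at 61.9, 58.2 and 51.7 CPM in I/R and 39.3, 37.2 and 31.5 CPM in I/R+Rk2, without overlap, and it fell with a log2 fold change of -0.67 ± 0.12 (SE, adjusted p = 0.00417). The gene Syn3 covers up to 21.3% of the exonic bases of Timp3 from the opposite strand.

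Timp2, which takes part in the activation of the Mmp2 enzyme at the cell surface, stood at 13.2, 14.9 and 13.8 CPM in I/R and 15.9, 12.3 and 16.5 CPM in I/R+Rk2. The groups overlapped, and its log2 fold change of 0.08 ± 0.14 (SE, adjusted p = 0.653) turned to -0.074 when libraries were scaled by size alone. The ratio of Timp1 to Timp2 in FPKM was 2.55 ± 0.45 (SD, n = 3) in I/R and 0.579 ± 0.296 (SD, n = 3) in I/R+Rk2, so that Timp1 exceeded Timp2 in every I/R liver and in none of the 3 I/R+Rk2 livers. The ratio of Mmp14 to Timp2 was 3.96 ± 1.21 (SD, n = 3) and 2.12 ± 0.55 (SD, n = 3). Timp4 had 2 counts in 1 liver and none in the other 5. The 4 Timp genes together summed to 28.8, 25.7 and 23.8 FPKM in I/R and to 13.8, 11.5 and 13.4 FPKM in I/R+Rk2.

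Among the ADAM genes, all 6 tested members that encode an active protease fell, and Adam11 and Adam23, whose products lack a working active site, did not pass the threshold. Adam17 (chr12:21323509-21373632) encodes the enzyme that releases tumor necrosis factor from the cell surface. It stood at 23.5, 22.4 and 27.6 CPM in I/R and 6.51, 5.89 and 5.53 CPM in I/R+Rk2, the I/R+Rk2 livers lying close together and far below the I/R livers. It fell with a log2 fold change of -2.03 ± 0.13 (SE, adjusted p = 0.000240), a decrease of 4.09-fold. Adam10 (chr9:70678997-70780229), the sheddase of Notch receptors and many adhesion molecules, stood at 34.0, 29.9 and 33.3 CPM in I/R and 7.15, 10.3 and 9.09 CPM in I/R+Rk2. It was separated in the same way and fell with a log2 fold change of -1.87 ± 0.15 (SE, adjusted p = 0.000366), a decrease of 3.66-fold.

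Adam8 (chr7:139978932-139992562), a sheddase of neutrophils and macrophages, stood at 35.9, 30.4 and 34.8 CPM in I/R and 9.88, 5.54 and 5.04 CPM in I/R+Rk2. The groups were far apart and Adam8 fell with a log2 fold change of -2.30 ± 0.25 (SE, adjusted p = 0.000902). Adam19, a sheddase of neuregulin, stood at 10.4, 9.56 and 11.5 CPM in I/R and 2.90, 2.13 and 1.66 CPM in I/R+Rk2, also without overlap, and fell with a log2 fold change of -2.22 ± 0.21 (SE, adjusted p = 0.000571). Adam9 (chr8:24949611-25016927) was the most abundant ADAM at 22.3, 19.8 and 20.1 FPKM in I/R and 11.0, 11.8 and 12.0 FPKM in I/R+Rk2. In CPM it stood at 80.6, 79.1 and 81.7 CPM in I/R and 47.0, 51.0 and 56.1 CPM in I/R+Rk2, and it fell with a log2 fold change of -0.65 ± 0.09 (SE, adjusted p = 0.00189), a smaller decrease of 1.57-fold with narrow spread inside each group. Adam15 averaged 6.63 ± 0.854 CPM (SD, n = 3) in I/R and 3.56 ± 0.339 CPM (SD, n = 3) in I/R+Rk2 and fell with a log2 fold change of -0.90 ± 0.16 (SE, adjusted p = 0.00518). A gene on the opposite strand, 4731419I09Rik, covers 20.6% of the exonic bases of Adam15.

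These 6 calls held without any single liver, and in every other analysis that tested the gene. The make-up of the subfamily shifted: Adam9 held 37.6% ± 0.3 (SD, n = 3) of the summed ADAM FPKM in I/R and 51.1% ± 3.7 (SD, n = 3) in I/R+Rk2, while Adam8 held 21.7% ± 1.3 and 9.59% ± 3.15 (SD, n = 3 each). The summed level of the 16 Adam genes was 59.8, 52.2 and 53.1 FPKM in I/R and 23.0, 23.6 and 21.7 FPKM in I/R+Rk2. Adam11 averaged 7.84 ± 0.658 CPM (SD, n = 3) in I/R and 8.51 ± 0.330 CPM (SD, n = 3) in I/R+Rk2 with a log2 fold change of 0.12 ± 0.12 (SE, adjusted p = 0.456), and Adam23 averaged 2.79 ± 1.38 CPM (SD, n = 3) and 2.82 ± 0.718 CPM (SD, n = 3) with a log2 fold change of 0.05 ± 0.37 (SE, adjusted p = 0.926). The other 8 Adam genes had too few counts to be tested.

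**Figure D4:**
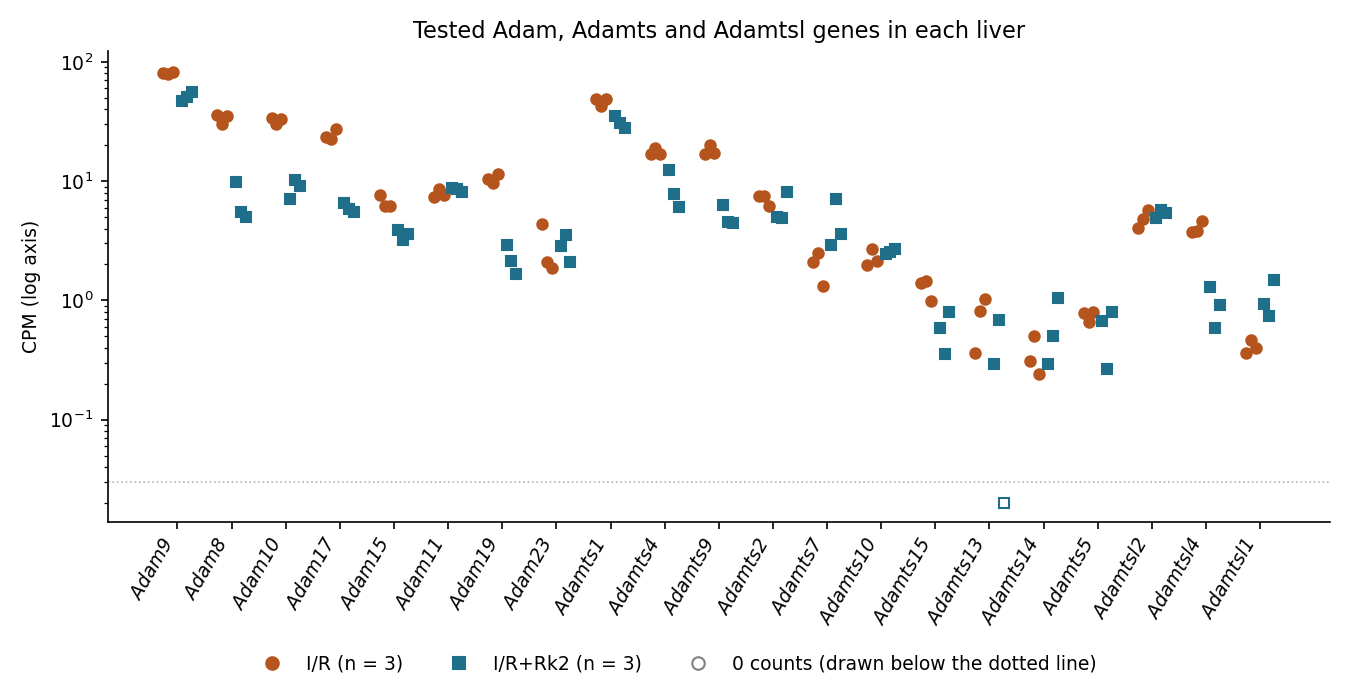
CPM on a log axis (vertical) of the 8 tested Adam, 10 tested Adamts and 3 tested Adamtsl genes (horizontal, each subfamily by falling mean FPKM) in each of the 3 I/R livers (circles) and 3 I/R+Rk2 livers (squares); the open square is a liver with 0 counts. Squares lie below circles for Adam9, Adam8, Adam10, Adam17, Adam15, Adam19, Adamts1, Adamts4, Adamts9, Adamts15 and Adamtsl4. Squares lie above circles for Adamts7 and Adamtsl1. Heights are to be compared within a gene only.

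The 4 Adamts genes that fell all encode proteases that cut versican and related proteoglycans. Adamts9 (chr6:92772699-92943492) stood at 16.9, 19.9 and 17.3 CPM in I/R and 6.30, 4.56 and 4.48 CPM in I/R+Rk2, far apart between the groups, and fell with a log2 fold change of -1.82 ± 0.17 (SE, adjusted p = 0.000523). Adamts1 (chr16:85793827-85803113), the most abundant of the subfamily at 11.8, 8.86 and 10.5 FPKM in I/R and 6.94, 6.19 and 5.38 FPKM in I/R+Rk2, stood at 48.9, 42.3 and 49.2 CPM in I/R and 35.1, 30.4 and 27.6 CPM in I/R+Rk2 and fell with a log2 fold change of -0.59 ± 0.12 (SE, adjusted p = 0.00667). With the trend of fold change on gene length removed, that decrease was -0.37 on the log2 scale (adjusted p = 0.0390). Adamts4 (chr1:171250421-171260637), an aggrecanase, stood at 16.9, 19.1 and 17.0 CPM in I/R and 12.5, 7.79 and 6.08 CPM in I/R+Rk2. Its I/R livers lay close together, its I/R+Rk2 livers spread more widely without reaching them, and it fell with a log2 fold change of -1.0 ± 0.25 (SE, adjusted p = 0.0159), a call that was lost without I/R+Rk2 replicate 2 (adjusted p = 0.0614).

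Adamts15, of the same group of proteases, had 27, 37 and 25 counts in I/R and 14, 12 and 13 in I/R+Rk2 and fell with a log2 fold change of -1.19 ± 0.37 (SE, adjusted p = 0.0365). This was the least stable of the falls. It was lost without I/R replicate 1, 2 or 3 or I/R+Rk2 replicate 1 or 2 (adjusted p of 0.111, 0.106, 0.0576, 0.0729 and 0.118), and the groups overlapped in FPKM. Adamts5, another aggrecanase, was scarce, with 9 to 20 counts per liver, and had a log2 fold change of -0.43 ± 0.44 (SE, adjusted p = 0.461).

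Adamts7, a protease of cartilage oligomeric matrix protein, was the 1 member of the 10 tested that rose, at 2.09, 2.50 and 1.32 CPM in I/R and 2.90, 7.08 and 3.62 CPM in I/R+Rk2. The highest value was that of I/R+Rk2 replicate 2, and every I/R+Rk2 liver lay above every I/R liver. Adamts7 rose with a log2 fold change of 1.22 ± 0.40 (SE, adjusted p = 0.0421), and it was lost without I/R replicate 1, 2 or 3 or I/R+Rk2 replicate 2 or 3 (adjusted p of 0.0951, 0.0566, 0.120, 0.138 and 0.0539), and with library size alone. The procollagen proteases Adamts2 and Adamts14, Adamts10, and Adamts13, which cleaves von Willebrand factor and is made by stellate cells, did not pass the threshold, with log2 fold changes of -0.25, 0.71, 0.16 and -1.02. The other 5 Adamts genes had too few counts to be tested.

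The ADAMTS-like genes did not move together. Adamtsl4, whose product binds fibrillin, stood at 3.75, 3.79 and 4.66 CPM in I/R and 1.3, 0.592 and 0.921 CPM in I/R+Rk2, without overlap, and fell with a log2 fold change of -2.13 ± 0.31 (SE, adjusted p = 0.00227). Adamtsl1 stood at 0.365, 0.468 and 0.399 CPM in I/R and 0.925, 0.740 and 1.47 CPM in I/R+Rk2, from 7 to 12 counts in I/R and 22 to 25 in I/R+Rk2, and rose with a log2 fold change of 1.29 ± 0.38 (SE, adjusted p = 0.0283). That rise was lost without I/R replicate 1, 2 or 3 or I/R+Rk2 replicate 3 (adjusted p of 0.0890, 0.0604, 0.0885 and 0.0728). Adamtsl2, the most abundant of them at 2.22, 1.40 and 1.42 FPKM in I/R and 1.16, 2.09 and 1.87 FPKM in I/R+Rk2, stood at 4.07, 4.84 and 5.70 CPM in I/R and 4.88, 5.77 and 5.40 CPM in I/R+Rk2, overlapped and had a log2 fold change of 0.13 ± 0.17 (SE, adjusted p = 0.559).

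The 19 members that were not tested were near the limit of detection. Apart from Mmp10, none had more than 17 counts in any liver. They were 3 Mmp, 1 Timp, 8 Adam, 5 Adamts and 2 Adamtsl genes. In I/R+Rk2 and I/R alike, 3 counts corresponded to between 0.0888 and 0.184 CPM, so differences of a few counts were not detectable at this depth. A further 26 rows of the FPKM table match the same names and were at 0 FPKM in every liver.

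Genes that act with these proteases were read from lists of textbook partners, which were chosen with earlier results of these data known. Of all genes tested, 23.7% fell and 20.3% rose, shares to set beside each list here and each marker list below. Of 18 genes that activate, inhibit or clear MMPs outside the TIMPs, 8 fell and 2 rose, with a median log2 fold change of -0.32. Lcn2, a neutrophil and acute phase protein that binds MMP9 and protects it, stood at 799, 636 and 465 CPM in I/R and 62.3, 39.7 and 44.5 CPM in I/R+Rk2 and fell with a log2 fold change of -3.70 ± 0.26 (SE, adjusted p = 0.000240). Thbs1, a matrix glycoprotein that binds MMP2 and MMP9, stood at 387, 387 and 435 CPM in I/R and 89.8, 47.0 and 48.9 CPM in I/R+Rk2 and fell with a log2 fold change of -2.70 ± 0.26 (SE, adjusted p = 0.000585). Plaur, the urokinase receptor, stood at 42.2, 40.3 and 37.8 CPM in I/R and 12.9, 7.08 and 8.47 CPM in I/R+Rk2 and fell with a log2 fold change of -2.08 ± 0.22 (SE, adjusted p = 0.000750). These 3 were separated between the groups in each liver. The summed CPM of the 18 genes ran from 9410 to 9801 in I/R and from 7885 to 8324 in I/R+Rk2.

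The listed partners of ADAM10 and ADAM17 include carriers, regulators and an inhibitor. Of 10 tested, 2 fell and 2 rose, near the shares of all genes tested (23.7% and 20.3%). The median log2 fold change was 0.16. The 2 that fell were the inactive rhomboids that bring ADAM17 to the surface. Rhbdf2 stood at 25.0, 22.5 and 25.3 CPM in I/R and 13.9, 12.5 and 10.9 CPM in I/R+Rk2 and fell with a log2 fold change of -0.96 ± 0.12 (SE, adjusted p = 0.00137), and Rhbdf1 stood at 11.4, 10.5 and 8.53 CPM in I/R and 5.55, 5.30 and 4.18 CPM in I/R+Rk2 and fell with a log2 fold change of -1.01 ± 0.17 (SE, adjusted p = 0.00373). The 2 that rose were tetraspanins that guide ADAM10. Tspan33 stood at 9.07, 9.29 and 9.61 CPM in I/R and 15.0, 14.3 and 16.7 CPM in I/R+Rk2 and rose with a log2 fold change of 0.71 ± 0.11 (SE, adjusted p = 0.00289), and Tspan15 stood at 0.938, 1.21 and 1.04 CPM in I/R and 1.98, 2.31 and 2.09 CPM in I/R+Rk2 and rose with a log2 fold change of 1.0 ± 0.23 (SE, adjusted p = 0.0125).

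Genes for proteins that ADAM10 or ADAM17 sheds were lower in I/R+Rk2 for all 29 tested, of which 21 fell past the threshold, with a median log2 fold change of -0.93. The 4 with the smallest p were Vcam1, an endothelial adhesion molecule, Csf1r, the receptor for macrophage colony-stimulating factor, Tnfrsf1a, a receptor of tumor necrosis factor, and Ereg, a ligand of the epidermal growth factor receptor. Vcam1 stood at 38.1, 43.3 and 37.3 CPM in I/R and 13.8, 14.3 and 14.9 CPM in I/R+Rk2, with a log2 fold change of -1.47 ± 0.10 (SE, adjusted p = 0.000240). Csf1r stood at 25.7, 22.2 and 27.7 CPM in I/R and 9.37, 7.85 and 9.70 CPM in I/R+Rk2, with a log2 fold change of -1.50 ± 0.14 (SE, adjusted p = 0.000506). Each of the groups was tight for these genes and they did not overlap. Tnfrsf1a stood at 187, 189.6 and 169 CPM in I/R and 96.3, 88.1 and 81.1 CPM in I/R+Rk2, with a log2 fold change of -1.04 ± 0.10 (SE, adjusted p = 0.000547). Ereg stood at 9.12, 9.99 and 13.2 CPM in I/R and 2.82, 2.07 and 2.39 CPM in I/R+Rk2, with a log2 fold change of -2.15 ± 0.20 (SE, adjusted p = 0.000548). Il1r2 and Csf1r of this list mark leukocytes and also stand in the marker lists used here.

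Of 11 tested substrates of ADAMTS proteases, 5 fell and none rose (median log2 fold change -0.27). Versican (Vcan) stood at 23.5, 26.0 and 30.7 CPM in I/R and 0.757, 0.296 and 0.675 CPM in I/R+Rk2, so that almost all of its reads were in the I/R livers, and it fell with a log2 fold change of -5.61 ± 0.30 (SE, adjusted p = 0.000212). Vcan is also a marker of monocytes. Fibrillin (Fbn1) stood at 5.16, 6.17 and 4.58 CPM in I/R and 2.06, 2.40 and 2.33 CPM in I/R+Rk2 and fell with a log2 fold change of -1.23 ± 0.19 (SE, adjusted p = 0.00267), and decorin (Dcn), made by stellate cells and fibroblasts, stood at 84.9, 107 and 120.4 CPM in I/R and 67.4, 69.1 and 68.1 CPM in I/R+Rk2 and fell with a log2 fold change of -0.61 ± 0.13 (SE, adjusted p = 0.00900). Thbs1, described above, belongs to this list too.

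**Figure D5:**
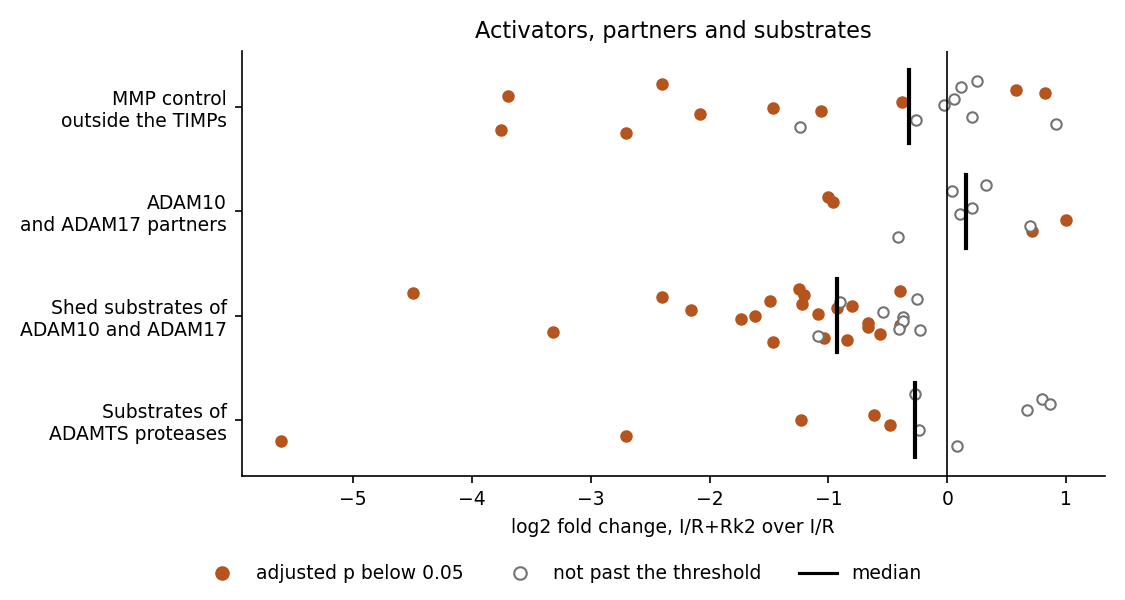
Log2 fold change of I/R+Rk2 over I/R (horizontal axis) for each tested gene of 4 lists of activators, partners and substrates (vertical axis, genes spread within a list); filled circles have an adjusted p below 0.05 and black bars are medians. The shed substrates lie left of zero throughout, and the partners of ADAM10 and ADAM17 lie on both sides.

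Markers of neutrophils and monocytes were lower in I/R+Rk2 in most cases. The 12 monocyte markers all fell, with a median log2 fold change of -4.10; without Fn1, which hepatocytes make in large amounts, their summed CPM ran from 277 to 308 in I/R and from 19.9 to 32.2 in I/R+Rk2. The 13 tested neutrophil markers had a median log2 fold change of -2.14 and ranged from -3.37 to -0.32. The 2 that did not pass were Retnlg and Ngp (adjusted p of 0.0620 and 0.577). Of 13 Kupffer cell markers 3 fell and none rose (median -0.49), of 16 stellate cell and fibroblast markers 6 fell and none rose (median -0.15), and of 12 sinusoidal endothelial markers 3 fell and 4 rose (median 0.23). Of 9 cholangiocyte markers 5 fell and 1 rose (median -0.93), of 12 hepatocyte markers 2 fell and 6 rose (median 0.35), and of 5 tested platelet markers 1 rose and none fell. The 5 tested mesothelial markers and the 1 tested marker of T and NK cells did not pass the threshold, and none of the B cell markers was tested. Summed CPM ranged from 282 to 348 in I/R and from 229 to 323 in I/R+Rk2 for Kupffer cell markers, from 292 to 342 and from 221 to 309.6 for stellate cell and fibroblast markers, from 249.1 to 266 and from 222 to 273 for sinusoidal endothelial markers, from 180.1 to 244 and from 96.2 to 131 for cholangiocyte markers, and from 80498 to 91561 and from 110683 to 135269 for hepatocyte markers. C6 had the highest CPM of the Kupffer cell markers. Without C6 their sums ran from 118 to 176 in I/R and from 85.5 to 104 in I/R+Rk2, without overlap. Without Spp1, the highest cholangiocyte marker, those sums overlapped, at 47.7 to 53.9 in I/R and 41.1 to 48.8 in I/R+Rk2. For stellate cell and fibroblast, sinusoidal endothelial and hepatocyte markers, leaving out the highest gene did not change whether the groups overlapped. The part of these cell types in the changes of the members was not tested.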

How the data were processed

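RNA of 6 livers was prepared from 250 ng each with an MGIEasy kit and sequenced on a BGISEQ-500, per the labels. The authors aligned reads to mm10 with HISAT2 2.2.1 and assembled expression values with StringTie 1.3.3 after FastQC 0.11.5 (submitters' processing notes). They deposited whole-number counts per gene and FPKM values. The annotation, the strand setting and the step from StringTie's estimates to whole counts were not stated, so counts of 1 to 3 may be rounded estimates.

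Counts were tested in R 4.3.3 with edgeR 4.0.16: filterByExpr, TMM scaling and the quasi-likelihood F test of I/R+Rk2 against I/R on all 6 livers, with Benjamini-Hochberg adjustment over 12411 genes. SE is the absolute log2 fold change over the square root of F. The study's limits were used, an adjusted p below 0.05 and, for large changes, over 2-fold. The procedure was tested on simulated data. Total counts were 16809613, 25077403 and 24783818 in I/R and 24398284, 35618074 and 17816979 in I/R+Rk2. The chi-square per degree of freedom between livers of a group ran from 31.4 to 74.8, so no library was a copy. Intervals and floors cover counting error only.

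The members, lists and motifs were chosen with earlier results of these data known. Values per liver are given for every member past both limits, every tested Mmp and Timp, and the 3 highest by FPKM of each subfamily, and for up to 4 genes per partner list with the smallest p; 1 gene this selects is not reported here but stayed in the counts. Alternatives were other scalings, other filters, DESeq2 1.42.0, limma 3.58.1 on log2(FPKM + pseudocount), a replicate block, removal of a length trend and leaving out each liver. Promoters came from RefSeq (GRCm38.p6) for 37 of the 57 members. A column of summed counts was not used.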

Additional observations from a re-analysis of the deposited data

How the results depend on the processing

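All 26 calls kept their direction in every alternative that tested them, and 16 kept the threshold in each: Adam8, Adam9, Adam10, Adam15, Adam17, Adam19, Adamts9, Adamtsl4, Mmp7, Mmp8, Mmp12, Mmp14, Mmp24, Mmp25, Timp1 and Timp3. Of these 16, Mmp7, Mmp12, Mmp24 and Mmp25 were not tested where at least 10 counts were required in every liver. The numbers called moved more. Limma on FPKM (mean of at least 1) called 17 members with a pseudocount of 1 or 0.1, of which 1 rose, 8 and 11 passed 2-fold, 6 were Mmp, 3 Adamts and 0 Adamtsl. Without that filter 0 rose, 8 passed 2-fold, 3 were Adamts and 1 Adamtsl. With at least 10 counts in every liver, 12 passed 2-fold, 5 were Mmp and 1 was Adamtsl, since fewer genes were tested. With library size alone 2 rose. Same-numbered livers did not deviate together over all genes (correlations of -0.056, 0.005 and -0.058). With 3 livers per group these values cannot exclude a pairing by number. The replicate block left 2 rises, 1 Adamtsl call and 22 calls in all, losing Mmp2, Mmp3, Adamts15 and Adamtsl1, and with the length trend removed as well, 2 rises, 2 Adamts, 1 Adamtsl and 20 calls, where Adamts1 (-0.38, adjusted p = 0.0604) and Adamts4 (-0.85, adjusted p = 0.0563) were lost too. Leaving out 1 liver gave 0 to 3 rises, 7 to 9 Mmp, 2 to 5 Adamts and 1 to 2 Adamtsl calls, with 19 to 23 calls in all. The cause was not tested unless stated.

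The log2 fold changes that changed sign were not past the threshold in any analysis, except Adamts2 without I/R+Rk2 replicate 3 (adjusted p = 0.0498, over a range of 0.0498 to 0.894). Adam11 went to -0.45 (FPKM, no filter or pseudocount 1), -0.62 (pseudocount 0.1) and -0.038 (library size alone). Adam23 went to -0.13 (library size alone) and, leaving out 1 liver, to between -0.17 and 0.52, below zero without I/R replicate 2 or 3 or I/R+Rk2 replicate 2. Adamts2 went to 0.070 (length trend removed) and 0.048 (with the replicate block too). Adamtsl2, and with it the Adamtsl median, went to -0.018 (library size alone), and the median to -1.02 (10 counts). Mmp23 went to between -0.11 and 0.70 leaving out 1 liver, below zero without I/R replicate 1 or I/R+Rk2 replicate 3. Timp2 went to -0.11, -0.11 and -0.14 on FPKM (no filter, pseudocount 1 and 0.1) and -0.074 (library size alone). Depth limits the genes with few counts, Mmp10, Mmp12 and Mmp24 among them.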
